A study of Mus musculus with 12 samples.

Results

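The genes described here are 33 glycolysis and HIF target genes, taken by symbol from a table of read counts of 55137 genes in the mouse epithelial line CMT-93, which derives from a rectal carcinoma. They comprise 2 transporters (Slc2a1 and Slc16a3), 16 glycolytic enzymes, 2 kinases that set glycolytic flux (Pdk1 and Pfkfb3), Hif1a with the prolyl hydroxylases Egln1 and Egln3, and 10 other HIF targets. The symbols matched 34 lines of the table, since Aldoa names 2 identifiers, and ENSMUSG00000030695, the one with the higher total, was used. Of the 33 genes, 32 passed the filter on low counts, among 15267 genes that did. Egln3 did not, with 0 to 4 reads per library.

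RNA was sequenced in 12 libraries, 3 from each of 4 groups of CMT-93 cells. The control group received vehicle alone. The PTSO group received 20 µM PTSO, propyl propane thiosulfonate, an organosulfur compound of garlic. The T. muris group received vehicle and, 30 minutes later, 100 µg/mL of antigens from the whipworm Trichuris muris, a parasite of mice. The PTSO + T. muris group, called the combined group here, received PTSO and then the antigens at the same doses, and cells were collected after 6 hours. All groups are the same cell line in culture, without other cells of the gut wall and without living worms. LPS stands in the series title in place of the antigens, but not in the labels of the samples, from which the groups were taken. Whether the 3 libraries of each group were cultured separately is not stated, so the p-values measure only the spread between these samples.

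Glycolysis breaks glucose down to pyruvate, which lactate dehydrogenase turns into lactate when it is not burnt in mitochondria. HIF-1, a dimer of Hif1a and Arnt, switches on most glycolytic enzymes, glucose and lactate transporters and a wider set of genes for blood vessel growth, mitophagy and collagen processing. Prolyl hydroxylases such as Egln1 use oxygen to mark Hif1a protein for destruction, and since Egln1 and Egln3 are HIF targets themselves, the pathway limits its own output. In the gut, epithelial cells live near low oxygen, and HIF activity is tied to barrier function there.

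HIF binds the core letters ACGTG or GCGTG. The promoter windows of 7 genes are shown. Slc2a1, Hk2, Pfkp, Egln1 and P4ha2 are 5 of the 6 genes whose averaged antigen effect passed the test in every fit that left out a single library. Adm had the highest value by PTSO among cells given antigens, and Eno2, with the largest fall with antigens alone, holds no core in its window. Each window runs from 250 bases before to 50 bases after the start of transcription, 5′ to 3′ in the direction of the gene, from RefSeq on GRCm38.p6. Capitals mark each core, which reads CACGT or CACGC where it lies on the other strand, and adjoining or overlapping cores give a longer run of capitals.
Slc2a1: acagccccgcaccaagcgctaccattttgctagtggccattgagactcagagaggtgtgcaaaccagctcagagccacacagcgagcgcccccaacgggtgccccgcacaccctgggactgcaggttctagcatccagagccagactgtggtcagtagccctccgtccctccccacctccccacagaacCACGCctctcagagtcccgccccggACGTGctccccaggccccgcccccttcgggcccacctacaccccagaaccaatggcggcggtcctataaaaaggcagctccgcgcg
Hk2: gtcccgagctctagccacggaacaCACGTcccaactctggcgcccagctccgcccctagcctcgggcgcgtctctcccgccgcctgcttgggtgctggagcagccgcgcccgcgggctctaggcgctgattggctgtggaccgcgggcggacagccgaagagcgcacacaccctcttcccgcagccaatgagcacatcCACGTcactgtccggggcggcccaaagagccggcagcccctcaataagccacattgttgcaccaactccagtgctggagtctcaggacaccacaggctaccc
Pfkp: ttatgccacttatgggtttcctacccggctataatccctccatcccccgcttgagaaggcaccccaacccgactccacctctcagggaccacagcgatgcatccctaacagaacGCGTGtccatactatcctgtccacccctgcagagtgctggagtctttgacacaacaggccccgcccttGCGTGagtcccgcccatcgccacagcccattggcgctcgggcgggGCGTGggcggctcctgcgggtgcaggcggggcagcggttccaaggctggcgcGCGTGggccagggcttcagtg
Egln1: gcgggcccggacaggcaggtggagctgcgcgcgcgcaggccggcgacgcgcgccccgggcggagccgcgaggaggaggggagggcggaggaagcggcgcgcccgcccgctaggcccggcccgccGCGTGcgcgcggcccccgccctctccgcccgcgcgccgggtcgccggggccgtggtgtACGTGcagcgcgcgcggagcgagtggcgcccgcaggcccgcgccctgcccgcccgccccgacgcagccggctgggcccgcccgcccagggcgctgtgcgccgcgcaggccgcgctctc
P4ha2: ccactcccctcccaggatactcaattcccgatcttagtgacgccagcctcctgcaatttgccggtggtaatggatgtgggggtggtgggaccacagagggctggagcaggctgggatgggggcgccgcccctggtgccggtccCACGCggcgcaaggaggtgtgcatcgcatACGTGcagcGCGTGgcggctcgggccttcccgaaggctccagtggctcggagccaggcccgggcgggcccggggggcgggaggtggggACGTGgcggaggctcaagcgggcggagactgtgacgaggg
Adm: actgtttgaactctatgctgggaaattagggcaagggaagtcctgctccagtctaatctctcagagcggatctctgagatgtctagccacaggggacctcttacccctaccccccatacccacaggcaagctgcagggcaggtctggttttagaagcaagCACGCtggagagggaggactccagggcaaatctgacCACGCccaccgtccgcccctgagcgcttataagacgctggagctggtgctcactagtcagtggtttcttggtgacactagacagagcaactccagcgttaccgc
Eno2: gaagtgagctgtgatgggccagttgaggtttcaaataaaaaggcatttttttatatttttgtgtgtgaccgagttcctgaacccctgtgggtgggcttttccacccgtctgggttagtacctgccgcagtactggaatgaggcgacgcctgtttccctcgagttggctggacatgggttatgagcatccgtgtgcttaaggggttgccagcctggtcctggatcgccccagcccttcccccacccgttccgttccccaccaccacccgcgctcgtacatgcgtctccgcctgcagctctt
The windows lie at chr4:119108495-119108794, plus strand (Slc2a1), chr6:82774405-82774704, minus strand (Hk2), chr13:6648722-6649021, minus strand (Pfkp), chr8:124949205-124949504, minus strand (Egln1), chr11:54100674-54100973, plus strand (P4ha2), chr7:110627407-110627706, plus strand (Adm) and chr6:124769624-124769923, minus strand (Eno2). P4ha2 and Pfkp hold 4 cores each, with those of Pfkp 136, 68 and 23 bases before the start and 29 bases after it, all reading GCGTG. Slc2a1, Hk2, Egln1 and Adm hold 2 each, and those of Hk2 lie 226 and 52 bases before the start.

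Promoter windows were found for 31 of the 33 genes, 47 windows in all. At least 1 core was present in 36 of them (76.6%), against 43.8% of all 32851 windows of the same length. Windows of these genes were richer in G and C, with a median of 62.0% against 52.7%. Among windows with at least 60% G and C, 24 of 27 (88.9%) held a core, against 69.2% of all such windows. By gene, 13 of the 16 glycolytic enzymes and all 8 of the other HIF targets that had a window held a core in at least 1 of theirs, against 46.7% of 27025 genes. The 31 genes have 47 windows, more for each gene than the 32851 windows of those 27025 genes, and a gene with several windows has more chances of a match. The letters of a core are short, and a match is a description of the sequence, not a measured binding site.

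Total counts were 16684143 to 34506754 per library. Markers of epithelium summed to 9220 to 9920 CPM (counts scaled for library size by TMM) over the libraries, with none of the 9 at 0. Within that sum, members moved in both directions between PTSO + T. muris and control. There 3 were called higher and 2 lower, against 7.88% and 8.85% of all genes. In a fit on only the libraries of those groups the counts were 2 and 1, against 2.49% and 3.45%. Epcam went from 492 ± 12.9 to 639 ± 27.5 CPM (SD, n = 3), Krt19 from 1610 ± 126 to 1350 ± 83.7 CPM and Cdh1 from 1390 ± 96.5 to 1200 ± 8.57 CPM. The 9 leukocyte markers summed to 3.28 to 6.33 CPM, with 2 to 5 at 0 by group, and the 10 fibroblast and endothelial markers to 5.18 to 9.63 CPM, with 3 at 0. Of the 4 of these that were tested, 2 were lower in PTSO + T. muris than in control, against 8.85% of all genes. They were Tek, at 2.09 ± 0.482 against 3.93 ± 0.706 CPM, and Pdgfra, at 0.392 ± 0.256 against 1.54 ± 0.702 CPM. In the fit on only those groups 0 of the 4 were called, against 5.93% of all genes. Control libraries 2 and 3 stood apart from control library 1 for the genes described here. Control library 1 was the lowest of the 3 controls for 29 of the 32 genes tested, against 38.8% of all genes tested, and control library 3 was the highest for 28, against 34.6%. The labels give no batch, and the part of these libraries in each result is given by the values without them. In bulk RNA, fewer cells that express a gene and less RNA of it per cell cannot be told apart.

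**Figure D1:**
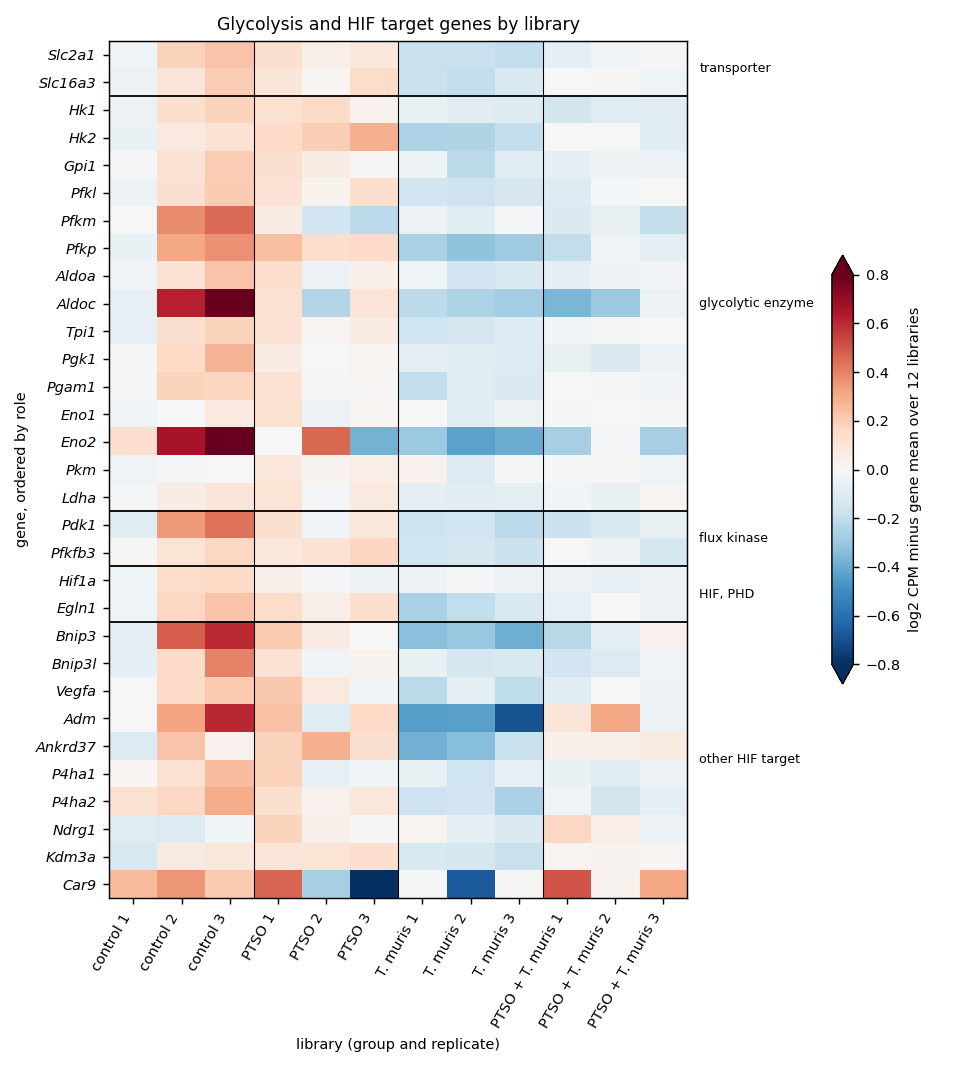
Each row is a gene, ordered by role, and each column a library. Colour is log2 CPM minus the gene's mean over the 12 libraries, and values past 0.8 in either direction share the end colour. Gapdh is left out and shown on its own, and Egln3 was not tested. Many rows are highest in control library 3 and lowest in T. muris libraries.

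The comparison of antigens with control asks what whipworm antigens do to these genes in cells without PTSO. With antigens, 19 of the 32 genes fell and 0 rose, against 3.43% of all 15267 genes called lower and 2.91% called higher. Of the 32 values, 30 were below 0, against 49.8% of all genes. A gene is called here when its p from edgeR's quasi-likelihood test, adjusted over all genes tested by the Benjamini-Hochberg method, is under 0.05. The median log2 fold change was -0.256, against 0.0012 over all genes tested, so the usual change was small. Both transporters fell, as did 9 of 16 enzymes, both flux kinases, Egln1, and 5 of 10 other HIF targets. For 25 of the 32 genes every antigen library lay below every control library, against 11.7% of all genes. These calls depended on which libraries entered the fit. On the 6 libraries of the groups compared, with every control kept, 0 of the 32 were called by edgeR's test, against 0.00689% of all genes. Leaving out T. muris library 1, 2 or 3 gave 0, 1 and 5 calls, and leaving out control library 2 or 3 gave 1 and 4. In a fit without control libraries 2 and 3, 0 of the 32 were called, against 0.0481% of all genes. That fit has a control arm of 1 library, assumed to vary as the other groups do. There, 29 of 32 values were below 0, against 48.4% of all genes, and 12 had an unadjusted p under 0.05, all lower, against 2.42%. DESeq2 called 26 of the 32 with all libraries. The shares of all genes called by DESeq2, or in fits that left out 1 library, were not counted. Measured against control library 1 alone, every antigen library was lower for 26 of the 32 genes, against 26.2% of all genes tested.

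Slc2a1, the glucose transporter GLUT1, was at 315, 368 and 379 CPM in control libraries 1 to 3 and at 354, 335 and 343 CPM with PTSO. With antigens Slc2a1 was at 286, 286 and 282 CPM, and in the combined group at 308, 317 and 326 CPM. Every antigen library lay below every other library, and the combined group overlapped only with control library 1. The log2 fold change of Slc2a1 with antigens was -0.31 ± 0.0553 (SE, adjusted p = 0.0107), and -0.15 ± 0.0517 without control libraries 2 and 3 (adjusted p = 0.819). Slc16a3, the lactate exporter MCT4, was at 320, 355 and 380 CPM in control, 353, 333 and 365 CPM with PTSO, 292, 288 and 303 CPM with antigens and 329, 332 and 322 CPM with both. Its antigen libraries again lay below all others, and its log2 fold change was -0.26 ± 0.0546 (adjusted p = 0.0192). Both transporters were lowest in the same 3 libraries.

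The first committed steps are catalysed by hexokinase and phosphofructokinase. Hk2, the inducible hexokinase, was at 126, 138 and 142 CPM in control, 145, 150 and 159 CPM with PTSO, 110, 111 and 114 CPM with antigens and 130, 131 and 123 CPM with both. The PTSO libraries were the highest and the antigen libraries the lowest, with no overlap between either and control. The antigen effect on Hk2 was -0.28 ± 0.0538 (adjusted p = 0.0148). Hk1, the constitutive hexokinase, was at 134, 151 and 156 CPM in control, 151, 154 and 141 CPM with PTSO, 132, 130 and 129 CPM with antigens and 125, 129 and 130 CPM with both. Its log2 fold change with antigens, -0.17 ± 0.0554, did not pass the test (adjusted p = 0.0647), and control library 1 lay just above the antigen libraries.

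The phosphofructokinases differed among themselves. Pfkp, the platelet isozyme, was at 117, 150 and 157 CPM in control, 143, 134 and 135 CPM with PTSO, 101, 97.2 and 99.6 CPM with antigens and 106, 118 and 115 CPM with both. Each antigen library was below every other library, and Pfkp fell by 0.51 ± 0.0834 on the log2 scale (adjusted p = 0.0109). Pfkl, the liver isozyme and the most abundant, was at 464, 520 and 552 CPM in control, 516, 487 and 523 CPM with PTSO, 428, 426 and 435 CPM with antigens and 443, 474 and 475 CPM with both. Pfkl fell by 0.25 ± 0.0541 (adjusted p = 0.0192), with antigen libraries lower than all others. Pfkm, the muscle isozyme, stood at 61.6, 80.1 and 84.4 CPM in control, 64.2, 55.4 and 53.1 CPM with PTSO, 59.8, 58.1 and 61.4 CPM with antigens and 56.9, 59.1 and 54.1 CPM with both. Only control libraries 2 and 3 stood out for Pfkm, and its change with antigens, -0.34 ± 0.0969, did not pass (adjusted p = 0.0508). Pfkp shares 748 exon bases with Pitrm1 on the opposite strand, and the strand setting of the counting is not given in the sources used here, so reads from the overlap cannot be assigned. Pfkm likewise shares 18 exon bases with Senp1.

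Gpi1, phosphoglucose isomerase, was at 351, 384 and 406 CPM in control, 386, 369 and 355 CPM with PTSO, 344, 306 and 332 CPM with antigens and 337, 344 and 342 CPM with both. All antigen libraries were under all controls, and Gpi1 fell by 0.22 ± 0.0547 (adjusted p = 0.0276). Aldoa, the main aldolase, was at 1190, 1310 and 1410 CPM in control, 1330, 1170 and 1240 CPM with PTSO, 1180, 1080 and 1110 CPM with antigens and 1140, 1170 and 1190 CPM with both. The highest antigen library came just under the lowest control, and Aldoa fell by 0.21 ± 0.0574 (adjusted p = 0.0354). Aldoc, the brain aldolase, was at 38.2, 61.6 and 74.8 CPM in control, 43.5, 34.1 and 43.2 CPM with PTSO, 34.6, 33.5 and 32.9 CPM with antigens and 31, 32.5 and 38.7 CPM with both. Control libraries 2 and 3 were far above the other 10 libraries for Aldoc, and its value of -0.79 ± 0.218 with antigens did not pass the test (adjusted p = 0.0631).

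Tpi1, triose phosphate isomerase, was at 1060, 1210 and 1260 CPM in control, 1200, 1130 and 1160 CPM with PTSO, 994, 1010 and 1030 CPM with antigens and 1090, 1100 and 1110 CPM with both. Antigen libraries were the lowest, and Tpi1 fell by 0.22 ± 0.0502 (adjusted p = 0.0228). Pgk1, phosphoglycerate kinase, which makes the first ATP of the pathway, was at 1250, 1410 and 1530 CPM in control, 1320, 1270 and 1290 CPM with PTSO, 1200, 1180 and 1170 CPM with antigens and 1210, 1170 and 1230 CPM with both. The 6 libraries with antigens were all below the 6 without, and Pgk1 fell by 0.24 ± 0.0526 with antigens alone (adjusted p = 0.0208). Pgam1, phosphoglycerate mutase, was at 1020, 1160 and 1160 CPM in control, 1120, 1030 and 1040 CPM with PTSO, 901, 963 and 953 CPM with antigens and 1030, 1020 and 1010 CPM with both. Its antigen libraries lay under all the others, and Pgam1 fell by 0.25 ± 0.0505 (adjusted p = 0.0176).

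The main enolase, pyruvate kinase and lactate dehydrogenase had the smallest values among the enzymes other than Gapdh. Eno1, the main enolase, ranged from 1780 to 2060 CPM over the 12 libraries and had a log2 fold change of -0.06 ± 0.0443 with antigens (adjusted p = 0.412). Pkm, pyruvate kinase, ranged from 2500 to 2880 CPM with a value of -0.01 ± 0.0403 (adjusted p = 0.905). In both the antigen and control libraries overlapped. Ldha, which makes lactate, was at 2010, 2110 and 2170 CPM in control, 2180, 2010 and 2140 CPM with PTSO, 1920, 1900 and 1920 CPM with antigens and 2000, 1950 and 2050 CPM with both. The antigen libraries of Ldha were the lowest, but its value of -0.13 ± 0.0416 did not pass (adjusted p = 0.06). Eno2, the neuronal enolase and a minor transcript here, was at 6.19, 8.88 and 9.79 CPM in control, 5.61, 7.74 and 4.33 CPM with PTSO, 4.59, 4.17 and 4.28 CPM with antigens and 4.68, 5.57 and 4.68 CPM with both. Its antigen libraries were all below control, at 0.526 times the control level (log2 fold change -0.93 ± 0.205, adjusted p = 0.0205).

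**Figure D2:**
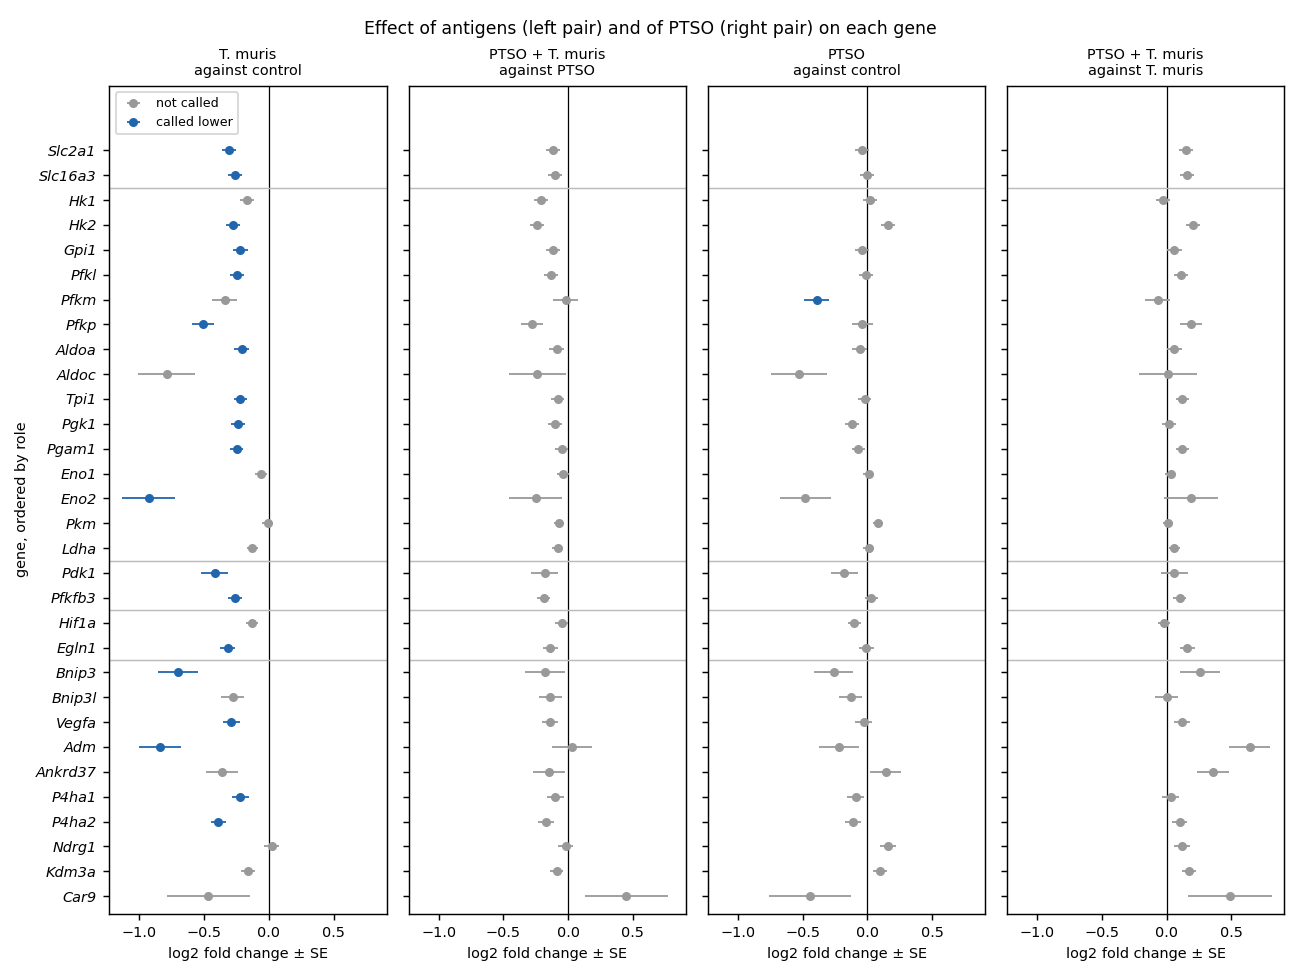
Points are log2 fold changes and bars their SE for each gene, in rows ordered by role and split by grey lines. The left pair of panels gives the antigen effect without and with PTSO, the right pair the PTSO effect without and with antigens. Called genes are blue: 19 in the first panel, Pfkm in the third and 0 in the others. Gapdh is left out for its scale.

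Of the flux kinases, Pfkfb3 makes fructose 2,6-bisphosphate, the strongest activator of phosphofructokinase, and Pdk1 blocks pyruvate dehydrogenase. Pfkfb3 was at 107, 114 and 118 CPM in control, 112, 115 and 119 CPM with PTSO, 94.5, 95.8 and 93.6 CPM with antigens and 106, 103 and 95.9 CPM with both. All 6 libraries with antigens lay below all 6 without, and Pfkfb3 fell by 0.26 ± 0.0529 with antigens alone (adjusted p = 0.0185). Pdk1 was at 88, 119 and 127 CPM in control, 103, 92.7 and 100 CPM with PTSO, 83.8, 84.1 and 81.3 CPM with antigens and 83.5, 86.5 and 90.8 CPM with both. Its controls 2 and 3 were the highest of all libraries, and Pdk1 fell by 0.42 ± 0.105 (adjusted p = 0.0373), with a value of -0.08 ± 0.0692 without those 2 libraries.

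Hif1a, the oxygen-regulated subunit, was at 472, 535 and 539 CPM in control, 497, 477 and 469 CPM with PTSO, 470, 478 and 467 CPM with antigens and 467, 462 and 470 CPM with both. Apart from control libraries 2 and 3 and PTSO library 1, the libraries lay within a narrow band, and the antigen and control libraries overlapped. Its change with antigens was -0.13 ± 0.0483 (adjusted p = 0.103). HIF is regulated mainly at the protein level, which was not measured. Egln1, the main prolyl hydroxylase that marks HIF for degradation, was at 186, 214 and 223 CPM in control, 211, 197 and 209 CPM with PTSO, 160, 166 and 175 CPM with antigens and 183, 191 and 185 CPM with both. Every antigen library was below every other library, and Egln1 fell by 0.32 ± 0.0586 (adjusted p = 0.0117).

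Among the other HIF targets, P4ha2 and P4ha1, the collagen prolyl 4-hydroxylase subunits, both fell with antigens. P4ha2 was at 71.7, 73.8 and 80.9 CPM in control, 71.9, 67.4 and 70.3 CPM with PTSO, 58.8, 59.3 and 55 CPM with antigens and 64.5, 59.4 and 62.5 CPM with both. The 6 libraries with antigens lay below the 6 without, and P4ha2 fell by 0.39 ± 0.0603, the smallest p of the 32 genes in this comparison (adjusted p = 0.0104). Without control libraries 2 and 3 it was at -0.31 ± 0.0766 (adjusted p = 0.258), and without T. muris library 1 its adjusted p was 0.0623. P4ha1 was at 96.8, 104 and 114 CPM in control, 109, 91.9 and 94.6 CPM with PTSO, 92.1, 86 and 91.9 CPM with antigens and 92.6, 89.7 and 93 CPM with both. The antigen libraries of P4ha1 were below control, with a fall of 0.22 ± 0.0658 (adjusted p = 0.0494).

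Adm, adrenomedullin, a peptide that widens vessels, was low in level and changed most among the called HIF targets. It was at 8.97, 11.2 and 13.7 CPM in control, 10.6, 8.4 and 10 CPM with PTSO, 6.6, 6.65 and 5.54 CPM with antigens and 9.59, 11.1 and 8.69 CPM with both. The antigen libraries were below all others, while the combined group overlapped with control and with PTSO. Adm fell to 0.56 times control with antigens (log2 fold change -0.84 ± 0.16, adjusted p = 0.014). Bnip3, a receptor for mitophagy, was at 140, 206 and 224 CPM in control, 171, 156 and 148 CPM with PTSO, 117, 120 and 113 CPM with antigens and 127, 140 and 151 CPM with both. It fell by 0.70 ± 0.154 (adjusted p = 0.0353), with controls 2 and 3 above the rest, and was at -0.26 ± 0.0814 without them. Vegfa, the vessel growth factor, was at 242, 270 and 281 CPM in control, 282, 256 and 239 CPM with PTSO, 209, 230 and 210 CPM with antigens and 228, 243 and 236 CPM with both. Its antigen libraries were below control, and Vegfa fell by 0.29 ± 0.0627 (adjusted p = 0.0203).

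The remaining HIF targets did not pass in this comparison. Kdm3a, a histone H3 lysine demethylase, was at 128, 148 and 150 CPM in control, 151, 152 and 154 CPM with PTSO, 129, 127 and 124 CPM with antigens and 142, 143 and 142 CPM with both. Control library 1 was as low as the antigen libraries, and the value was -0.16 ± 0.0535 (adjusted p = 0.0699). Ndrg1, a stress-induced gene, was at 95, 93.8 and 99.7 CPM in control, 115, 104 and 102 CPM with PTSO, 103, 96.2 and 93.6 CPM with antigens and 114, 105 and 98.4 CPM with both. Its antigen and control libraries overlapped, with a value of 0.02 ± 0.0607, and PTSO libraries were above control. Bnip3l, a mitophagy receptor close to Bnip3, had a value of -0.28 ± 0.0883 (adjusted p = 0.0749), and Ankrd37, an ankyrin repeat gene, -0.36 ± 0.124 (adjusted p = 0.0768). Ankrd37 shares 57 exon bases on the opposite strand with Ufsp2, whose count is 720% of its own. Car9, carbonic anhydrase 9, a classic marker of hypoxia, had 21 to 83 reads per library, shares 214 exon bases with Gm12454, and had a value of -0.47 ± 0.321 (adjusted p = 0.381).

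The same antigens were compared in cells given PTSO first. In PTSO + T. muris against PTSO, edgeR's test called 0 of 32 genes, and 0% of all genes were called. Below 0 were 30 of the 32 values, against 49.4% of all genes. An unadjusted p under 0.05 was found for 10, all lower, against 3.63% of all genes, and DESeq2 called Hk2 alone. For 18 genes every combined library lay below every PTSO library, against 7.89% of all genes. Gapdh, whose levels are uncertain, is counted among these 18. Hk2 was at -0.24 ± 0.0535 (adjusted p = 0.375), Hk1 at -0.21 ± 0.0553 (adjusted p = 0.501) and Pfkp at -0.28 ± 0.083 (adjusted p = 0.695). This comparison uses no control library, but the spread it is tested against does. Fitted on the 6 libraries of those groups alone, Hk1, Hk2 and Pfkp were called lower, at adjusted p-values of 0.0498, 0.0224 and 0.0126, against 0.185% of all genes called lower.

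Averaged over cells without and with PTSO, 20 of the 32 genes were lower with antigens, against 3.07% of all genes called lower, and 0 were higher, against 2.12%. The 20 comprised both transporters, 11 enzymes, both flux kinases, Egln1 and 4 other HIF targets. For Hk1, Gpi1, Pgk1, Pfkfb3 and P4ha2 all 6 libraries with antigens were below all 6 without, against 0.956% of all genes. The mean effect was -0.26 ± 0.0379 for Hk2 (adjusted p = 0.00184), -0.28 ± 0.0426 for P4ha2 (adjusted p = 0.00259) and -0.39 ± 0.0588 for Pfkp (adjusted p = 0.00536). Pfkfb3 was at -0.22 ± 0.0374, Egln1 at -0.23 ± 0.0414 and Slc2a1 at -0.22 ± 0.039. These 6 genes were called in every fit that left out 1 library, and the other 14 were not. In the fit without control libraries 2 and 3, Hk2, Pfkp, Pfkfb3, Bnip3 and P4ha2 were called lower, against 0.397% of all genes. Pfkp was then at -0.25 ± 0.0403 (adjusted p = 0.000797), and Hk2 at -0.21 ± 0.0383 (adjusted p = 0.00517).

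**Figure D3:**
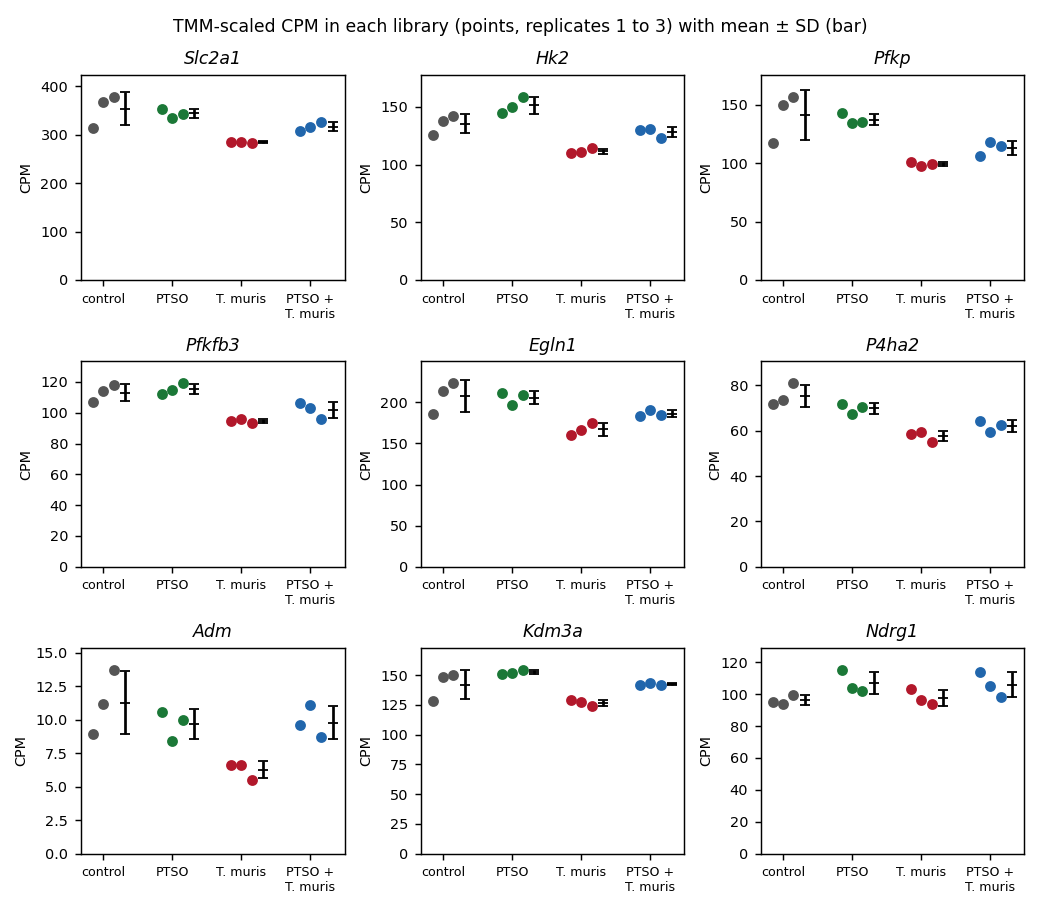
TMM-scaled CPM (vertical axis, from 0) in the 3 libraries of each group (points, replicates 1 to 3 from left to right), with mean ± SD as a bar. The antigen libraries are the lowest for Slc2a1, Hk2, Pfkp, Pfkfb3, Egln1 and Adm, and the PTSO libraries lie above control for Hk2 and Ndrg1.

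The PTSO comparisons ask what the garlic compound does on its own and ahead of antigens. PTSO alone changed 1 of the 32 genes, against 5.25% of all genes called in either direction. Pfkm fell by 0.39 ± 0.0965 (adjusted p = 0.032), but PTSO and control libraries overlapped and the value was -0.10 ± 0.0891 without control libraries 2 and 3 (adjusted p = 0.884). Hk2 was at 0.16 ± 0.0533 (adjusted p = 0.0753), with all PTSO libraries above all controls. Kdm3a at 0.10 ± 0.0532, Ndrg1 at 0.16 ± 0.0603 and Pkm at 0.08 ± 0.0403 also had every PTSO library above control, and none passed. These 4 genes compare with 10.4% of all genes with every PTSO library above control. Without control libraries 2 and 3, Hk2 was at 0.27 ± 0.0635 and Kdm3a at 0.24 ± 0.0583. Those values set PTSO against the single control library 1, the lowest control for most of these genes, with the spread taken from the other groups.

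In cells given antigens, PTSO left 0 of the 32 genes called by edgeR's test, against 0.616% of all genes, while 28 of 32 values were above 0, against 50.2%. There were 10 with an unadjusted p under 0.05, all higher, against 4.05% of all genes, and 17 genes had every combined library above every antigen library, against 8.92%. Adm was at 0.64 ± 0.161, or 1.56 times its level with antigens alone (adjusted p = 0.0846). Hk2 was at 0.20 ± 0.054 (adjusted p = 0.12), and DESeq2 called Adm and Hk2. Kdm3a was at 0.17 ± 0.0536 (adjusted p = 0.248) and Ankrd37 at 0.36 ± 0.125 (adjusted p = 0.306). Without control libraries 2 and 3, which this comparison does not use but which enter the shared estimate of spread, 9 genes were called higher, against 1.04% of all genes. They were Slc2a1, Slc16a3, Hk2, Pfkp, Tpi1, Egln1, Bnip3, Adm and Kdm3a, with Adm at 0.64 ± 0.145 (adjusted p = 0.00879) and Hk2 at 0.20 ± 0.0449 (adjusted p = 0.00736). The 6 libraries alone gave 10 calls, the same 9 and Pgam1, against 1.35% of all genes called higher.

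Averaged over cells without and with antigens, Hk2 and Kdm3a rose with PTSO, 2 of 32 against 2.8% of all genes called higher, and 0 fell, against 3.71%. The mean effect on Hk2 was 0.18 ± 0.0379 (adjusted p = 0.00624), called in every alternative fit made. Kdm3a was at 0.13 ± 0.0378 (adjusted p = 0.0384), and was not called when any PTSO, T. muris or combined library was left out. Ndrg1 at 0.14 ± 0.0428 (adjusted p = 0.0643) and Ankrd37 at 0.25 ± 0.087 (adjusted p = 0.0901) did not pass. Leaving out control libraries 2 and 3, 9 genes were called higher with PTSO: Slc2a1, Slc16a3, Hk2, Pfkl, Pfkp, Tpi1, Egln1, Bnip3 and Kdm3a, against 1.3% of all genes called higher.

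The difference between the PTSO effects with and without antigens was tested as an interaction. edgeR called 0 of the 32 genes, and 0% of all genes, and DESeq2 also called 0 of the 32. An unadjusted p under 0.05 was found for 7 genes, all positive, against 3.88% of all genes. Adm had the smallest p, with a PTSO effect that was 0.86 ± 0.223 higher with antigens than without them (adjusted p = 0.644). Its value was 0.54 ± 0.245 without control libraries 2 and 3. Against control, the combined group had 11 genes lower and 0 higher, against 8.85% and 7.88% of all genes. The 11 were Hk1, Pfkm, Pfkp, Aldoc, Pgk1, Eno2, Pdk1, Pfkfb3, Hif1a, P4ha1 and P4ha2. P4ha2 was at -0.28 ± 0.0601 (adjusted p = 0.00426), Hif1a at -0.14 ± 0.0483 (adjusted p = 0.0448) and Hk2 at -0.08 ± 0.0536 (adjusted p = 0.346). Once control libraries 2 and 3 were left out, these 11 values ran from -0.31 (Eno2) to -0.01 (Hif1a), each smaller in size than with all libraries. Of the 11, P4ha2 alone was called in every fit that left out 1 library. On only the groups compared Eno2 and P4ha2 were called and the other genes were not, against 5.93% of all genes. This comparison shares the control libraries with those of PTSO and of antigens alone. The epithelial markers Epcam, Krt18 and Cldn4 were higher and Krt19 and Cdh1 lower in it, and the part of these shifts in the values of the 32 genes was not tested.

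The glycolytic enzymes and the other HIF targets were set side by side over the 4 groups, as medians with no test. The enzymes include Gapdh, whose levels are uncertain. With antigens alone the median log2 fold change was -0.23 over 16 enzymes and -0.33 over 10 other HIF targets, against 0.0012 over all genes tested. With antigens after PTSO the medians were -0.11 and -0.12. PTSO gave medians of -0.03 and -0.10 without antigens, and 0.06 and 0.15 with them. Without control libraries 2 and 3 the antigen medians were -0.09 for enzymes and -0.18 for other targets, and the PTSO medians without antigens were 0.07 and 0.11, of the opposite sign. By library, the enzyme median relative to the mean of all libraries was -0.023, 0.126 and 0.191 in the controls and -0.076, -0.122 and -0.111 with antigens. The other targets were at -0.037, 0.159 and 0.227 in the controls and -0.142, -0.156 and -0.177 with antigens. In both classes the antigen libraries were below every other library, and control library 1 was below the PTSO libraries. The combined libraries lay from -0.065 to -0.037 for enzymes, and from -0.038 to 0.015 for other targets.

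**Figure D4:**
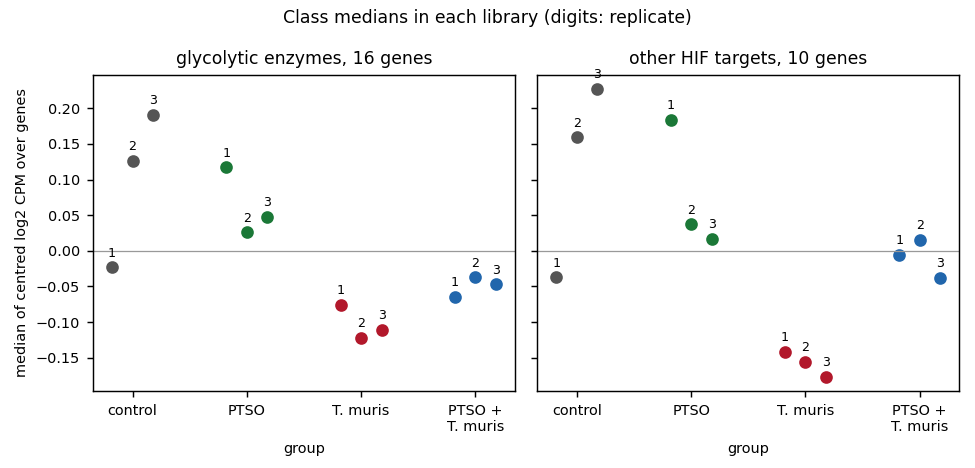
Each point is a library, numbered by replicate, and the vertical axis is the median over genes of log2 CPM minus the gene's mean over 12 libraries, on the same scale for both classes. Antigen libraries are the lowest in both panels, and control libraries 2 and 3 are far above control library 1.

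Levels between genes are given as RPKM, which is CPM divided by the exon length in kilobases, with lengths from GENCODE M21. In control cells Ldha was at 633 ± 24.4 RPKM (SD, n = 3), Pgk1 at 622 ± 62.6, Pgam1 at 562 ± 40.8, Pkm at 535 ± 5.03, Aldoa at 448 ± 37.8, Tpi1 at 427 ± 37.8 and Eno1 at 358 ± 12.7. In this order, neighbours from Ldha to Pkm lie within their spread of each other, as do Aldoa and Tpi1. Slc2a1 was at 101 ± 9.76 RPKM and Hif1a at 87.4 ± 6.37, whereas Adm was at 6.97 ± 1.46, Eno2 at 1.76 ± 0.398 and Car9 at 1.1 ± 0.0578. Steps with several isozymes were dominated by a single one, except hexokinase. Of phosphofructokinase transcripts scaled by length in control cells, 70.0% ± 1.66 (SD, n = 3) were Pfkl, 20.5% ± 1.2 Pfkm and 9.56% ± 0.47 Pfkp. Eno1 made up 99.5% of enolase and Aldoa 96.2% of aldolase transcripts. Hk2 made up 56.9% ± 0.479 of hexokinase transcripts in control, 59.3% ± 2.07 with PTSO, 55.0% ± 0.78 with antigens and 58.8% ± 1.26 with both. Its share was 57.4 to 61.7% over the PTSO and combined libraries and at most 55.8% in the antigen libraries, with the controls from 56.4 to 57.4%. Bnip3 was 53.3% ± 2.89 of the Bnip3 and Bnip3l total in control and 46.2% ± 1.0 with antigens, where the libraries did not overlap.

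Gapdh, the enzyme that oxidises glyceraldehyde 3-phosphate and a common reference gene, behaved unlike the rest. It was at 300, 258 and 23.9 CPM in control, 154, 201 and 280 CPM with PTSO, 269, 297 and 30.7 CPM with antigens and 127, 24 and 19.9 CPM with both. The 4 libraries under 50 CPM came from 3 different groups, and the other 8 were over 100 CPM, a 15.1-fold range in all. The other tested genes ranged by 1.15-fold (Ldha) to 3.22-fold (Car9) over the libraries. Gapdh has 36 near-identical copies elsewhere in the table, at 97% identity over 300 bases or more, which hold 40.6% as many reads as Gapdh itself. Their sum ranged from 57.8 to 94.6 CPM, or 1.64-fold, and was 59.4 to 79.9 CPM in the 4 libraries where Gapdh was low. How reads shared by Gapdh and its copies were counted is not given, and the cause of its range was not tested. The levels of Gapdh are uncertain, and its difference between groups was not called, at -1.80 ± 1.13 for the combined group against antigens. Bnip3l, Eno1 and Pgam1 have copies with 7.8%, 3.85% and 1.82% of their reads, and all other genes described here under 1%.

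**Figure D5:**
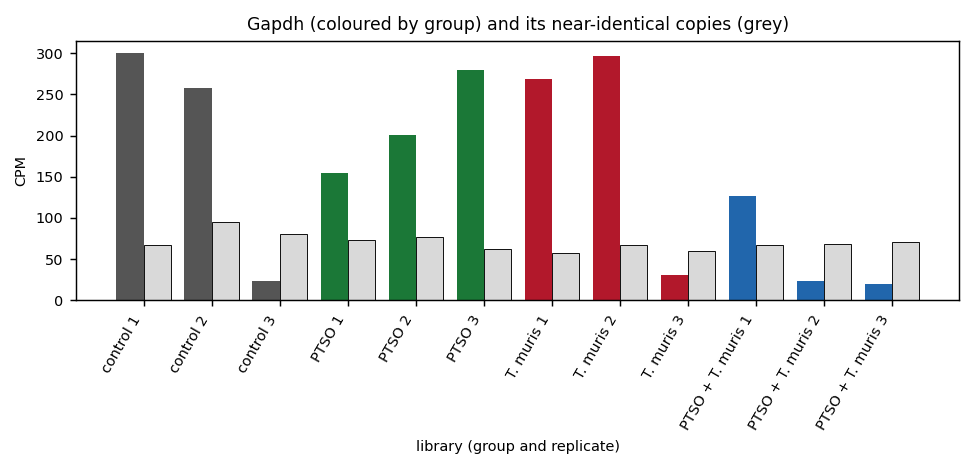
Bars are CPM in each library, from 0, for Gapdh (coloured by group) and for the sum of its 36 near-identical copies (grey). Gapdh is under 50 CPM in control 3, T. muris 3 and combined libraries 2 and 3, while the copies stay between 57.8 and 94.6 CPM.

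Further genes of the pathway were taken from lists made by function. Of 24 tested further HIF targets, 7 were lower and 1 higher with antigens, against 3.43% and 2.91% of all genes. Ddit4, an inhibitor of mTORC1, was at -0.31 ± 0.0578 (adjusted p = 0.0117), Kdm4b, a histone demethylase, at -0.38 ± 0.0794 (adjusted p = 0.0185) and Gys1, glycogen synthase, at -0.29 ± 0.0663 (adjusted p = 0.0222). Tfrc, the transferrin receptor, rose by 0.36 ± 0.0599 (adjusted p = 0.0104), from 559 ± 54.7 to 717 ± 23.2 CPM (SD, n = 3). With antigens, 0 of these 24 genes were called by edgeR's test on only the groups compared, against 0.00689% of all genes. There 12 had an unadjusted p under 0.05, against 21.4% of all genes. Ddit4 was at -0.15 ± 0.0608 and Tfrc at 0.21 ± 0.0561 without control libraries 2 and 3. With PTSO ahead of antigens, Ddit4 was 0.30 ± 0.0579 higher than with antigens alone (adjusted p = 0.0215), and Car12, a carbonic anhydrase, was lower at -0.51 ± 0.115 (adjusted p = 0.0463). Both were also called without control libraries 2 and 3 and on only the groups compared. In PTSO against control 2 of the 24 rose and 2 fell, against 2.36% and 2.9% of all genes. Ddit4 rose by 0.24 ± 0.0571 and Tfrc by 0.26 ± 0.0599, while Stc2, a secreted glycoprotein, was at -0.34 ± 0.0897 and Pdgfb, a growth factor chain, at -0.27 ± 0.0643. On only the groups compared 0 of the 24 were called by edgeR's test, against 0.314% of all genes. An unadjusted p under 0.05 was found there for 9, against 17.7% of all genes. Without control libraries 2 and 3, where 0.463% of all genes were called, Ddit4 was at 0.40 ± 0.0616 (adjusted p = 0.000242), Tfrc at 0.11 ± 0.0558 (adjusted p = 0.686), Stc2 at -0.14 ± 0.108 (adjusted p = 0.857) and Pdgfb at -0.25 ± 0.0835 (adjusted p = 0.282).

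Of 13 tested regulators of HIF, which include Vhl, the partner that degrades hydroxylated HIF, and Hif1an, a HIF hydroxylase, 0 were called by edgeR's test in PTSO or in antigens against control. The shares of all genes called were 5.25% and 6.35%. In each comparison 2 of the 13 had an unadjusted p under 0.05, against 23% and 25.2% of all genes. In PTSO + T. muris against control 1 of the 13 was lower, against 8.85% of all genes called lower. An unadjusted p under 0.05 was found for 4, against 31% of all genes. On only the groups compared 0 of the 13 were called by edgeR's test, against 5.93% of all genes. The gene called lower was Arnt, the dimer partner of Hif1a, at -0.22 ± 0.0657 (adjusted p = 0.0249). Arnt was lower by the averaged antigen effect too, at -0.16 ± 0.0464 (adjusted p = 0.0486), and was at -0.07 ± 0.0461 without control libraries 2 and 3. By the averaged antigen effect 1 of the 13 was called lower, against 3.07% of all genes. Of 19 tested related glycolysis genes, 1 was lower with antigens, against 3.43% of all genes. It was Pdk2, a pyruvate dehydrogenase kinase, at -0.79 ± 0.165 (adjusted p = 0.0185). Pdk2 was at -0.66 ± 0.163 with PTSO (adjusted p = 0.0235), against the same control libraries. It was at -0.52 ± 0.206 with antigens (adjusted p = 0.952) and at -0.39 ± 0.206 with PTSO (adjusted p = 0.686) without control libraries 2 and 3.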

How the data were processed

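Read counts per gene in 12 libraries were deposited by the authors as raw counts in a single table. HISAT, DESeq2 and the build mm39 appear in the submitters' processing notes, without versions or roles. Whether counting used strand is not given in the sources used here. Libraries were grouped by their labels, and each column was matched to a library by name.

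The deposited counts were fitted with edgeR 4.0.16 in R 4.3.3 on all 12 libraries, with TMM scaling, a filter on low counts and 1 coefficient per group (8 residual degrees of freedom). Genes were tested with the robust quasi-likelihood test, with Benjamini-Hochberg adjustment over 15267 genes. The SE is the size of the log2 fold change divided by the square root of F. Main effects are means of the effect over both levels of the other treatment. CPM are scaled by TMM. Total counts set the precision, and the biological coefficient of variation was 8.74%. Scripts were tested on simulated data.

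Values in every library are given for genes called in any comparison, for the 2 genes of each role with the smallest p in each main effect, and for Hif1a. Of other lists at most 4 called genes are named, by smallest p. The genes and lists were chosen with earlier results of these data known. Exon lengths, overlaps and near-identical copies (BLAST+ 2.17.0) came from GENCODE M21 on GRCm38, and promoter windows from RefSeq, matched by symbol. Alternatives were RLE size factors, DESeq2 1.42.0, no filter, only the groups compared, a replicate block, and fits without each library and without control libraries 2 and 3. For the other lists, the fits on only the groups compared and without control libraries 2 and 3 were added after seeing the data.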

Additional observations from a re-analysis of the deposited data

How the results depend on the processing

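Counts of the 32 genes called were equal under RLE size factors. Shares of all genes called were not counted for DESeq2, no filter, the replicate block or fits that left out 1 library. In PTSO against control 2 genes were called by DESeq2 and 0 on only the groups compared, against 0.314% of all genes for the latter. Without control libraries 2 and 3 its class medians were 0.07 for enzymes and 0.11 for other HIF targets. In antigens against control 0 were called on only the groups compared (0.00689% of all genes) and 0 without control libraries 2 and 3, with class medians of -0.09 and -0.18. In PTSO + T. muris against T. muris 2 were called by DESeq2, 1 without a filter (Adm), 10 on only the groups compared and 9 without control libraries 2 and 3. In PTSO + T. muris against PTSO 1 was called by DESeq2, 2 without a filter and 3 on only the groups compared. The last were all lower, against 0.185% of all genes called lower. In PTSO + T. muris against control 2 were called on only the groups compared, against 5.93% of all genes. The interaction had 1 call without a filter (Adm, adjusted p = 0.0389). The averaged PTSO effect had 5 calls by DESeq2 and 4 without a filter, and the value of Bnip3 turned to 0.21 without control libraries 2 and 3. The averaged antigen effect had 5 calls without those libraries.

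Leaving out single libraries gave 0 to 27 calls in antigens against control, 6 to 27 for the averaged antigen effect, 2 to 23 in PTSO + T. muris against control, 0 to 12 in PTSO against control and 1 to 9 for the averaged PTSO effect. The ranges were 0 to 9 in PTSO + T. muris against T. muris, 0 to 3 in PTSO + T. muris against PTSO and 0 to 14 for the interaction. In antigens against control, the counts under 15 came without T. muris library 1 (0), 2 (1) or 3 (5) and without control library 2 (1) or 3 (4). Without control library 1 the counts were at their highest, with 14 interaction calls and 12 for PTSO. Class medians ranged, for enzymes and other targets, from -0.30 to -0.18 and -0.40 to -0.28 with antigens, from -0.09 to 0.02 and -0.16 to -0.02 with PTSO, from 0.02 to 0.08 and 0.13 to 0.17 for PTSO with antigens, and from -0.12 to -0.08 and -0.14 to -0.08 for antigens after PTSO. The cause was not tested.

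The labels state no pairing of libraries by replicate number. Over 18 same-numbered pairs, deviations from the group means correlated at -0.092 to 0.154, with 2 pairs over 0.1. Pairs with different numbers were not computed for reference, so these values do not settle whether the libraries were paired. With the replicate number as a block, 19 genes were called in antigens against control, 20 for the averaged antigen effect, 9 in PTSO + T. muris against control, 3 for the averaged PTSO effect and 0 in PTSO against control.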

Other observations

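Of 7 tested genes of glucose sensing and the Myc network, 1 was called with antigens, higher, against 2.91% of all genes. On only the groups compared 0 of the 7 were called with antigens by edgeR's test, against 0.00689% of all genes. There 3 had an unadjusted p under 0.05, against 21.4% of all genes. Txnip, which curbs glucose uptake and is driven by the glucose sensor Mlxip, rose by 0.49 ± 0.083 with antigens (adjusted p = 0.0104), by edgeR's test. It was at 0.56 ± 0.0829 in PTSO + T. muris against control (adjusted p = 0.000322), and its averaged antigen effect was 0.45 ± 0.0584 (adjusted p = 0.00155). Without control libraries 2 and 3, Txnip was at 0.34 ± 0.101 with antigens (adjusted p = 0.646), and its averaged antigen effect was 0.37 ± 0.0616 (adjusted p = 0.00105). Mxd1, a partner of Max that opposes Myc, rose with PTSO by 0.33 ± 0.0534 without antigens (adjusted p = 0.0021) and by 0.27 ± 0.054 with them (adjusted p = 0.0238). Its averaged antigen effect was -0.15 ± 0.038 (adjusted p = 0.0323), and -0.13 ± 0.0424 without control libraries 2 and 3 (adjusted p = 0.237).

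Of 10 genes of mitochondrial pyruvate entry, 0 were called in antigens against control by edgeR's test, with 2 at an unadjusted p under 0.05, against 6.35% and 25.2% of all genes. Pdp1, the phosphatase that activates pyruvate dehydrogenase, was lower with PTSO, at -0.42 ± 0.118 (adjusted p = 0.0475). It was also lower in PTSO + T. muris against control, at -0.40 ± 0.118 (adjusted p = 0.0288). In each it was 1 of 10 called, against 2.9% and 8.85% of all genes called lower. On only the groups compared 0 of the 10 were called in either comparison, against 0.314% and 5.93% of all genes. Pdp1 was at -0.02 ± 0.113 with PTSO without control libraries 2 and 3 (adjusted p = 0.981).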
